A study of Homo sapiens with 6 samples.

Results

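The 10 genes described here are imprinted growth regulators, chosen by name: Dlk1, Meg3, Rian, Mirg, H19, Igf2, Peg3, Peg10, Cdkn1c and Grb10. Each name stood on exactly 1 gene, so 10 of the 53492 genes in the tables were taken. They were read in 6 libraries of polyadenylated RNA from cells labelled SH-SY5Y, a human neuroblastoma line. Of these, 3 were labelled as transfected with pCS2-eGFP-N, which carries green fluorescent protein (GFP) alone, and 3 with pCS2-eGFP-CCNB1IP1, which carries GFP joined to CCNB1IP1. The CCNB1IP1 protein, known too as HEI10, is a ubiquitin ligase of meiotic crossing over. The labels give no time after transfection, no untransfected sample and no statement that replicates were separate cultures, so p-values measure only the spread between these libraries, which may be technical.

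Imprinted genes are expressed mainly or only from the copy inherited from one parent, because the parental copies carry different DNA methylation at a control region. As a group they are known for setting fetal and placental growth, with many genes of the paternal copy promoting growth and many of the maternal copy restraining it. Dlk1, Igf2, Peg3 and Peg10 are known as paternally expressed; Meg3, Rian, Mirg, H19 and Cdkn1c as maternally expressed; and Grb10 as maternally expressed in most tissues but paternally in neurons. The tables hold total levels with no allele information, so which parental copy gave the RNA was not measured.

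All 53492 identifiers are of mouse form and 0 of them matched a human table of 62700 identifiers. Every value here is therefore listed under a mouse gene, although the line the labels name is human. Identifiers give the annotation that reads were assigned to, not the species of the RNA. Whether the RNA came from mouse or human cells was not tested, and comparisons of level between genes depend on it. Mouse Ccnb1ip1 measured 0.0334, 0.125 and 0.0698 FPKM with GFP and 7.36e-08, 0.133 and 0.191 FPKM with GFP-CCNB1IP1, so the groups overlapped. The introduced sequence was not analysed here, so this does not check the labels, and the groups are those the labels give. Of 14 markers of sympathetic neuroblasts, 13 had a mean of at least 1 FPKM, while Dbh, the enzyme that makes noradrenaline, was below it. The 14 summed to 1197 to 1280 FPKM with GFP and to 1022 to 1105 FPKM with GFP-CCNB1IP1, without overlap. That mean was reached by 2 of 8 fibroblast markers (Pdgfra and Pdgfrb), 1 of 7 glial markers (Erbb3), 1 of 5 endothelial markers (Pecam1) and 0 of 6 macrophage markers. The fibroblast genes Col3a1 and Lum and the endothelial gene Emcn were listed at 0 in all 6 libraries. The glial markers summed to 3.49 to 4.01 FPKM with GFP and 4.49 to 4.68 with GFP-CCNB1IP1, the endothelial ones to 1.95 to 2.40 and 2.41 to 2.67, and the fibroblast ones to 6.06 to 7.77 and 6.42 to 7.95. GFP-CCNB1IP1 replicate 2 stood apart from the rest. Its depth, read from the deposited intervals, was 0.744 of the mean of the GFP libraries, against 0.951 to 1.06 in the other 5. It also had the highest value of all 6 macrophage markers, which summed to 5.66 FPKM there and to between 0.437 and 1.28 FPKM in the other 5, with Ptprc and Adgre1 listed at 0 in those. In bulk RNA, more cells of a type and more RNA per cell cannot be told apart. Results for the 10 genes are therefore given with and without it, and the part of any of these cell types in them was not tested.

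The first question was how strongly each gene was expressed. Values are FPKM, which count sequenced fragments relative to the transcript's length and to all fragments mapped. Levels are compared between genes on that basis, with the species of the RNA not tested. Peg3, Peg10, Dlk1 and Igf2 were the 4 highest, Rian followed, Mirg lay near 1 FPKM, and Cdkn1c, Meg3, H19 and Grb10 were below 0.6 FPKM in every library. The 4 highest are the 4 paternally expressed genes of the set. For the 5 highest the deposited interval stayed above 0 in all 6 libraries. For the 4 lowest its lower bound was 0 in all 6, so none of those can be told from 0 in any single library by its own interval.

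**Figure D1:**
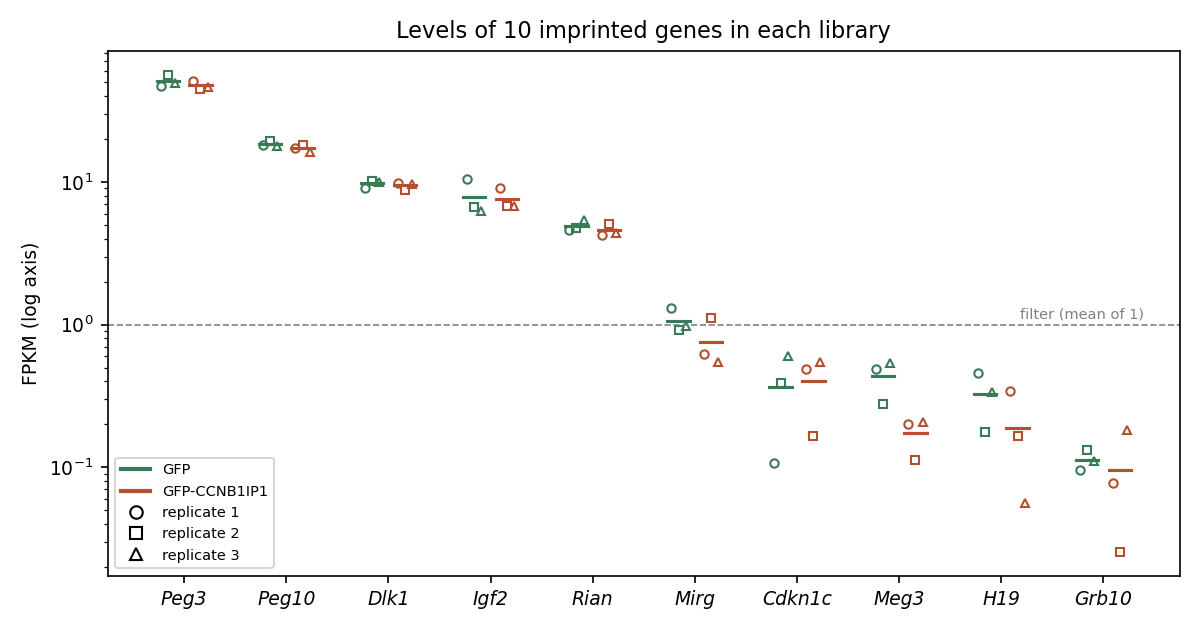
FPKM (log axis) of the 10 genes, ordered by mean level; each point is a library, its shape the replicate number, green for GFP and red for GFP-CCNB1IP1, with a bar at each group mean and a dashed line at the filter of 1 FPKM. Peg3 sits near 49.1 FPKM and Grb10 near 0.104, and the groups overlap for the 5 highest genes.

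Peg3 encodes a large zinc finger protein known for roles in fetal growth and maternal behaviour, and lies on chromosome 7 from 6706891 to 6733430 (ENSMUSG00000002265.18; the genome build of this and all later positions is not stated in the sources used). It measured 46.7, 56.5 and 49.3 FPKM with GFP and 50.8, 45.0 and 46.6 FPKM with GFP-CCNB1IP1, here and below in the order of replicates 1 to 3. The groups overlapped, and GFP replicate 2 was the high library, with a deposited interval of 54.2 to 58.8 FPKM that met no other. Its mean of 49.1 FPKM exceeded that of 89.2% of the 13231 genes with a mean of at least 1 FPKM. Usp29, the imprinted gene that begins 0.147 kb from Peg3 on its right, had only 1.83 FPKM in mean, and Zim1, the nearest gene on its left, had 0.158 FPKM.

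Peg10 derives from the gag and pol genes of a retrotransposon and is required for placental development. It lies on chromosome 6 from 4747306 to 4760517 (ENSMUSG00000092035.9). It measured 18.1, 19.4 and 17.9 FPKM with GFP and 17.3, 18.0 and 16.3 FPKM with GFP-CCNB1IP1. GFP-CCNB1IP1 replicate 2 was above GFP replicate 3, so the groups overlapped, while the lowest library was GFP-CCNB1IP1 replicate 3. Sgce, a paternally expressed sarcoglycan gene whose end lies 0.099 kb from that of Peg10, had a mean of 31.0 FPKM.

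Dlk1 encodes a membrane protein of the Delta-like family, known for holding precursor cells, among them preadipocytes, in an undifferentiated state and for its expression in chromaffin and neuroblastoma cells. It lies on chromosome 12 from 109418749 to 109429262 (ENSMUSG00000040856.18). It measured 9.13, 10.2 and 10.04 FPKM with GFP and 9.84, 8.80 and 9.72 FPKM with GFP-CCNB1IP1. The groups overlapped and the highest library was 1.16 times the lowest, the narrowest range of the 10 genes. Its mean of 9.62 FPKM placed it above 46.3% of the genes with a mean of at least 1 FPKM.

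Igf2 encodes insulin-like growth factor 2, a fetal growth factor, and lies on chromosome 7 from 142204503 to 142220553 (ENSMUSG00000048583.17). It measured 10.4, 6.66 and 6.26 FPKM with GFP and 9.13, 6.79 and 6.73 FPKM with GFP-CCNB1IP1. Replicate 1 was the high library in both groups, and the other 4 libraries lay close together, so the groups overlapped fully. The mean of both replicate 1 libraries was 1.48 times that of the other 4. In GFP replicate 1 the deposited lower bound, 8.76 FPKM, was above the highest upper bound of those 4, 8.11 FPKM; in GFP-CCNB1IP1 replicate 1 it was 7.84 FPKM and was not. Over all genes with a mean of at least 1 FPKM, both replicate 1 libraries were above the other 4 in 7.03%, and by a ratio at least as large as that of Igf2 in 0.159%. This pattern was picked out after the values were seen. Igf2os and Gm49394, which overlap Igf2, had means of 0.0217 and 0.0367 FPKM, and without strand their reads may not be separable from those of Igf2. Dlk1 and Igf2, which follow each other in level, were not separated, since Igf2 in GFP replicate 1 exceeded every Dlk1 value.

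**Figure D2:**
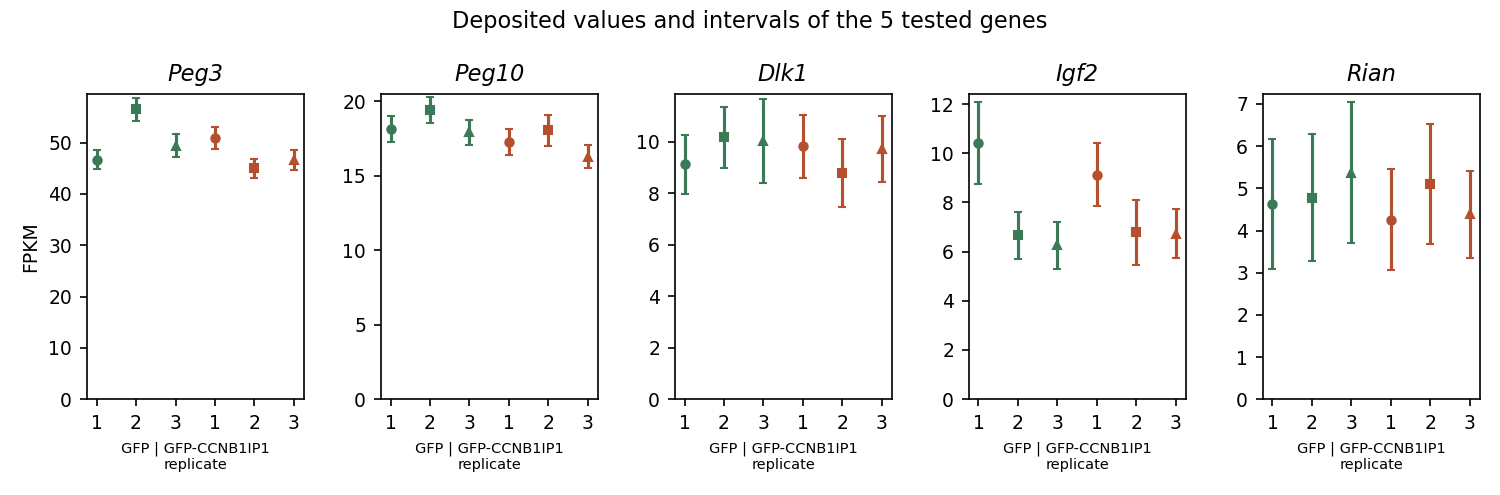
FPKM of the 5 genes with a mean of at least 1 FPKM in each library (replicates 1 to 3 of GFP in green, then of GFP-CCNB1IP1 in red; axes start at 0), with bars for the deposited interval. Both replicate 1 libraries stand high for Igf2, at 10.4 and 9.13 FPKM, and GFP replicate 2 stands high for Peg3, at 56.5 FPKM.

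Among the maternally expressed genes, the 3 long noncoding RNAs beside Dlk1 were at unequal levels. Rian, which hosts many small nucleolar RNAs, lies on chromosome 12 from 109570242 to 109628150 (ENSMUSG00000097451.12). It measured 4.63, 4.78 and 5.37 FPKM with GFP and 4.26, 5.10 and 4.38 FPKM with GFP-CCNB1IP1. GFP-CCNB1IP1 replicate 2 was the second highest of the 6, so the groups overlapped. Each Rian value was above every Mirg value and below every Igf2 value.

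Mirg, which hosts a microRNA cluster, lies on chromosome 12 from 109696198 to 109715894 (ENSMUSG00000097391.9). It measured 1.31, 0.911 and 0.971 FPKM with GFP and 0.627, 1.11 and 0.547 FPKM with GFP-CCNB1IP1. GFP-CCNB1IP1 replicate 2 lay among the GFP libraries and the other two of its group were the lowest. The deposited lower bound was 0 in 2 libraries, and the intervals were as wide as 3.62 to 9.92 counted fragments would give.

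Meg3, a long noncoding RNA with reported growth-restraining activity, is the nearest of the 3 to Dlk1, on chromosome 12 from 109506884 to 109538160 (ENSMUSG00000021268.18). It measured 0.486, 0.276 and 0.540 FPKM with GFP and 0.203, 0.112 and 0.207 FPKM with GFP-CCNB1IP1. All 3 GFP-CCNB1IP1 libraries were below all 3 GFP libraries. Meg3 alone among the 10 genes had groups that did not overlap, beside 12.3% of all 26841 genes with any signal. Of those 26841 genes, 6.33% were lower without overlap. The intervals of Meg3 were as wide as 0.148 to 3.62 counted fragments would give and reached 0 everywhere.

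The whole stretch from Dlk1 to Dio3, on chromosome 12 from 109418749 to 110247531, held 104 genes of the tables, of which 96 were listed at 0 in all 6 libraries. These 96 include the 59 microRNA genes whose symbol begins with Mir and a number, and also mmu-mir-3070-1 and mmu-mir-3070-2. The libraries were built from polyadenylated RNA and selected by size, so short RNAs are not measured by them. Rtl1, a gag-derived gene known as paternally expressed, ranged from 0.186 to 0.260 FPKM with GFP and from 0.250 to 0.354 FPKM with GFP-CCNB1IP1. Dio3, which encodes a thyroid hormone-inactivating deiodinase at the far end, was above 0 in GFP replicate 2 alone, at 0.0328 FPKM. Dlk1, Rian and Gm3379 were the 3 genes with a mean of at least 1 FPKM. Gm3379 is a gene model of 642 bases that reached 54.6 to 56.9 FPKM with GFP and 57.7 to 64.8 FPKM with GFP-CCNB1IP1; it did not pass the test (log2 fold change 0.16, SE 0.057; limma, adjusted p = 0.361). Strand was not stated, so reads of Rtl1 and of an antisense transcript may not be separable.

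**Figure D3:**
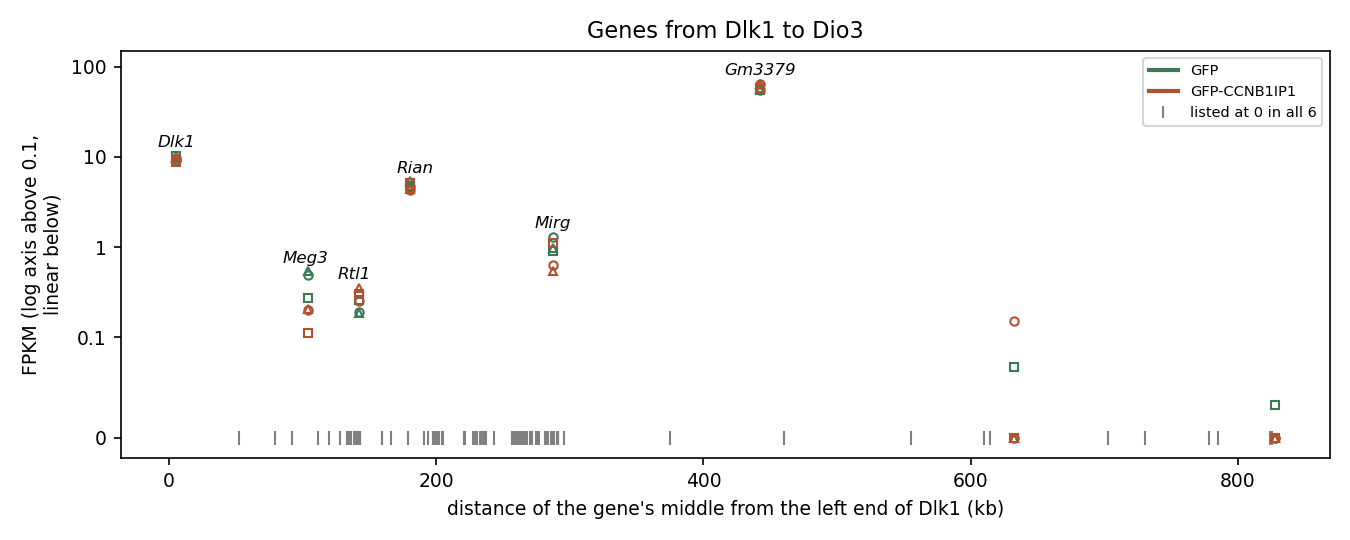
FPKM in each library (log axis above 0.1, linear below) of the genes from Dlk1 to Dio3, against the distance in kb of each gene's middle from the left end of Dlk1; green points are GFP, red points GFP-CCNB1IP1, and grey ticks mark the 96 genes listed at 0. Rian is at a mean of 4.76 FPKM while Meg3, between it and Dlk1, is at 0.304 FPKM.

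H19, a maternally expressed noncoding RNA that shares enhancers with Igf2, was barely seen. It lies on chromosome 7 from 142129266 to 142131880 (ENSMUSG00000000031.17) and measured 0.458, 0.178 and 0.336 FPKM with GFP and 0.344, 0.167 and 0.0564 FPKM with GFP-CCNB1IP1. The groups overlapped, and as for Igf2 both replicate 1 libraries were above the other 4, here by a small margin over GFP replicate 3. Igf2 was above H19 in each of the 6 libraries. The ratio of Igf2 to H19 was 18.6 to 37.5 with GFP and 26.6 to 119 with GFP-CCNB1IP1, so the groups overlapped. It is given with no test and rests on H19 values whose deposited lower bound was 0 in all 6. Ins2, the insulin gene nearest to Igf2 on its right, was listed at 0 in all 6.

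Cdkn1c, which encodes the cyclin-dependent kinase inhibitor p57, lies on chromosome 7 from 143012076 to 143014787 (ENSMUSG00000037664.14). It measured 0.108, 0.390 and 0.599 FPKM with GFP and 0.487, 0.165 and 0.550 FPKM with GFP-CCNB1IP1. The groups overlapped fully, with a high and a low library in each. Both replicate 3 libraries were above all the others, by a small margin over GFP-CCNB1IP1 replicate 1 and within intervals that reached 0. Gm44732, a gene model that overlaps Cdkn1c, had a mean of 0.152 FPKM, so the division of reads between them is uncertain. Its relatives were far higher: Cdkn1a (p21) had a mean of 38.5 FPKM, Cdkn1b (p27) 28.4 FPKM and the Cdkn2a locus 121 FPKM.

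Grb10, an adaptor that binds and dampens the insulin and insulin-like growth factor 1 receptors, lies on chromosome 11 from 11880508 to 11988683 (ENSMUSG00000020176.18). It was the lowest of the 10 and measured 0.0963, 0.132 and 0.111 FPKM with GFP and 0.0774, 0.0256 and 0.182 FPKM with GFP-CCNB1IP1. Both the lowest and the highest value were in the GFP-CCNB1IP1 group. Its relative Grb14 had a mean of 6.07 FPKM. In the order of levels Mirg, Cdkn1c, Meg3, H19 and Grb10 were not separated, since the lowest library of each of the first 4 was below the highest library of the gene that follows it.

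The second question was whether the GFP-CCNB1IP1 vector went with another level of any of the 10 genes than GFP alone. None passed the test at an adjusted p under 0.05, and over all 13231 genes tested 1 gene, or 0.00756%, passed (limma, Benjamini-Hochberg). The 5 genes with a mean of at least 1 FPKM entered the test; Mirg, Cdkn1c, Meg3, H19 and Grb10 were below it and were read from a second fit that took in all 26841 genes with any signal, where 0 genes, or 0%, passed. Fold changes are differences of log2(FPKM + 1), which understate changes of low genes.

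Of the 5 tested genes, 0 had an unadjusted p under 0.05, against 11.4% of all tested genes, and 0 had groups that did not overlap, against 17.6%. All 5 had a log2 fold change below 0, as did 48.6% of all tested genes. Their median was -0.087, beside 0.004 over all tested genes. Without GFP-CCNB1IP1 replicate 2 the log2 fold changes were -0.13 for Peg10, -0.15 for Rian, -0.058 for Peg3, 0.00089 for Dlk1 and 0.041 for Igf2, and none passed. Peg10 and Rian were then lower without overlap, which in this split of 3 against 2 libraries also held for 13.2% of all tested genes. Counting both directions, 29.0% of all tested genes did not overlap there. Other removals left other genes without overlap: Dlk1 lower and Igf2 higher without GFP replicate 1, and Peg10 lower without GFP replicate 3. Peg3 and H19 were lower without overlap when GFP-CCNB1IP1 replicate 1 was removed, and Grb10 when GFP-CCNB1IP1 replicate 3 was removed. With 1 library left out, 25.6% to 31.8% of all tested genes did not overlap, and 19.8% to 23.5% of genes with any signal.

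Peg10 fell short of the test at 18.5 ± 0.798 FPKM with GFP and 17.2 ± 0.882 with GFP-CCNB1IP1 (SD, n = 3), or -0.10 in log2 (SE 0.064; adjusted p = 0.606 by limma). Peg3 had 50.8 ± 5.07 and 47.5 ± 3.01 FPKM (SD, n = 3), or -0.09 in log2 (SE 0.080; adjusted p = 0.698 by limma). Without GFP replicate 2, its high library, the value for Peg3 was -0.018. Dlk1 had 9.78 ± 0.568 and 9.45 ± 0.565 FPKM (SD, n = 3), or -0.04 in log2 (SE 0.075; adjusted p = 0.861 by limma). The 95% interval of that difference ran from 0.859 to 1.09 times the GFP level on the FPKM + 1 scale. Rian had 4.93 ± 0.393 and 4.58 ± 0.455 FPKM (SD, n = 3), or -0.09 in log2 (SE 0.096; adjusted p = 0.772 by limma). Removing GFP replicate 3 gave Rian a value of -0.034, and removing GFP-CCNB1IP1 replicate 1 gave -0.046.

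Igf2 was the least precise of the 5, with 7.78 ± 2.30 and 7.55 ± 1.37 FPKM (SD, n = 3), or -0.02 in log2 (SE 0.185; adjusted p = 0.981 by limma). Its interval ran from 0.732 to 1.33 times the GFP level on the FPKM + 1 scale. Without GFP replicate 1, the library with the highest value, the log2 fold change was 0.19 (limma, adjusted p = 0.708).

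Meg3 had the smallest p among the 10 genes. Its log2 fold change was -0.29 (SE 0.083; limma, unadjusted p = 0.0162, adjusted p = 0.473). In the second fit an unadjusted p was under 0.05 with a lower value for 4.18% of genes. Among the 5229 genes with a mean from 0.1 to 1 FPKM, groups were lower without overlap for 5.51%. Over the 19 other settings tried, the adjusted p of Meg3 ran from 0.320 to 0.689. The size of its log2 fold change depended on the pseudocount, at -0.95 with 0.1 FPKM added (limma, adjusted p = 0.529) and -0.071 with 5 FPKM added (adjusted p = 0.482 by limma). Without GFP-CCNB1IP1 replicate 2 its log2 fold change was -0.25 (limma, adjusted p = 0.631) and the groups still did not overlap. The ratio of Dlk1 to Meg3 was 18.6 to 36.9 with GFP and 47.1 to 78.8 with GFP-CCNB1IP1, given with no test. It rests on the wide Meg3 intervals, whose lower bound was 0 in all 6 libraries. Since Dlk1 overlapped between the groups, this ratio mainly restates the Meg3 values.

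The other 4 low genes were less separated. Mirg had a log2 fold change of -0.24 (SE 0.152), H19 of -0.16 (SE 0.118), Grb10 of -0.03 (SE 0.055) and Cdkn1c, the 1 positive value, of 0.04 (SE 0.175). Their adjusted p-values by limma were 0.764, 0.775, 0.892 and 0.957. Without GFP-CCNB1IP1 replicate 2, 6 of the 10 genes had a log2 fold change below 0 in place of 9, and Mirg was also lower without overlap, at -0.37 (limma, adjusted p = 0.558), as were 10% of all genes with any signal in that split. Counting both directions, 21.5% of those genes did not overlap there. H19 was then at -0.15, Grb10 at 0.020 and Cdkn1c at 0.17. Over the removal of each library Mirg ran from -0.37 to -0.15, the latter without GFP-CCNB1IP1 replicate 3, and H19 from -0.25 without GFP-CCNB1IP1 replicate 1 to -0.075 without GFP-CCNB1IP1 replicate 3. With every library kept, 50.2% of all genes with any signal had a value below 0.

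**Figure D4:**
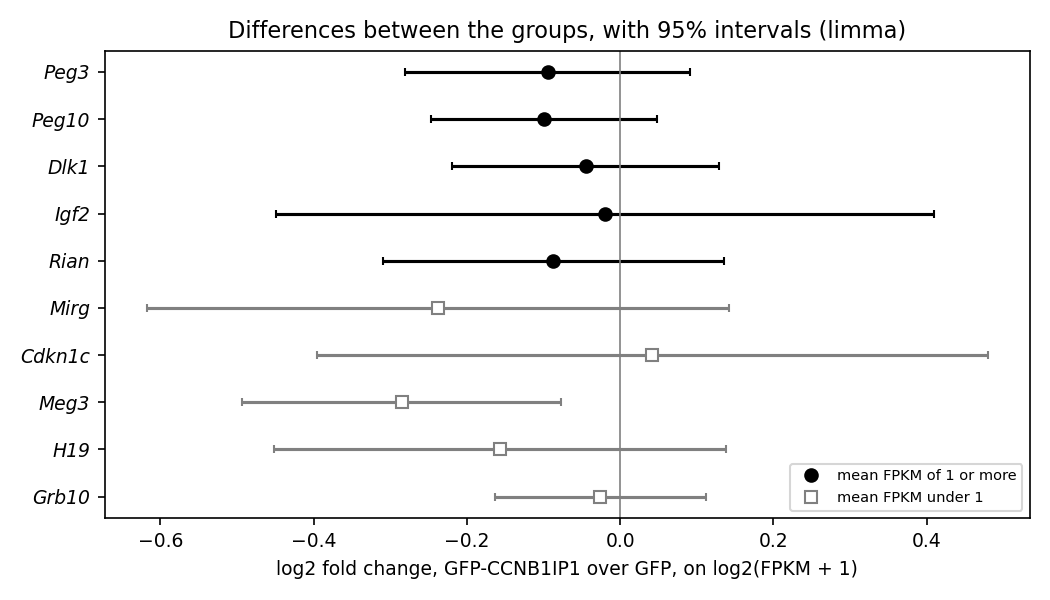
Log2 fold change of GFP-CCNB1IP1 over GFP for each of the 10 genes on the log2(FPKM + 1) scale, with 95% intervals from limma; filled black points have a mean of at least 1 FPKM and open grey squares a lower mean. All intervals hold 0 except that of Meg3, from -0.49 to -0.08 before adjustment for the number of genes.

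The third question was how the genes around these 10 behaved. Of 63 other genes known to be imprinted in mouse, 62 were in the tables and 30 had a mean of at least 1 FPKM; 0 passed the test. Of the 30, 14 were higher and 16 lower in value, with a median log2 fold change of -0.02 beside 0.004 over all genes tested, and 3 had an unadjusted p under 0.05, all lower. Zdbf2, a paternally expressed zinc finger gene, measured 15.2 ± 0.626 FPKM with GFP and 13.3 ± 0.619 with GFP-CCNB1IP1 (SD, n = 3; limma, adjusted p = 0.349). Tssc4 had 20.3 ± 0.0948 and 17.9 ± 1.30 FPKM, Trappc9 14.0 ± 0.0537 and 12.4 ± 0.837, and Mkrn3 5.53 ± 0.220 and 4.81 ± 0.143. The groups did not overlap for these 4 genes, 13.3% of the 30 against 17.6% of all genes tested.

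Levels of the imprinted genes were sorted by the parental copy each is known for, with the 10 included; Grb10 and 16 other imprinted genes with no single parental copy assigned here were left out. A mean of at least 1 FPKM was reached by 17 of 27 paternally expressed genes and by 11 of 28 maternally expressed ones. Their median levels were 5.06 and 0.343 FPKM. Without the 10 genes the counts were 13 of 23 and 10 of 23, with medians of 1.83 and 0.283 FPKM. At a mean of at least 5 FPKM the counts were 14 of 27 and 10 of 28 with the 10 genes. Without them they were equal, at 10 of 23 for each parental copy. This sorting was made after the values were seen and is a description. It goes by the copy each gene is known for in some tissue, and whether any of them was imprinted in these cells was not measured. Mest, a paternally expressed hydrolase-like gene, had the highest level among the genes sorted, with a mean of 274.5 FPKM, and H13, a maternally expressed signal peptide peptidase gene, had 101 FPKM.

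For the signalling pathway of Igf2, 33 genes were listed and 17 had a mean of at least 1 FPKM; 0 passed, 11 were higher and 6 lower in value, and the median log2 fold change was 0.02. The signalling receptor genes Igf1r and Insr had means of 12.6 and 15.4 FPKM. Igf2r, the imprinted receptor that clears Igf2, had 0.0861 FPKM. Igf1, another ligand, had 0.693 FPKM in GFP-CCNB1IP1 replicate 2, where the macrophage markers were highest, and at most 0.0358 FPKM in the other 5; the part of those cells in this value was not tested. The receptor substrate gene Irs2 had 79.3 ± 2.32 and 70.8 ± 0.843 FPKM (SD, n = 3; limma, adjusted p = 0.278), and the adaptor gene Shc1 had 70.6 ± 0.517 and 63.1 ± 2.40 (adjusted p = 0.292). Irs3 had 1.26 and 1.54 FPKM in mean.

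Among 12 relatives of Grb10 and Cdkn1c, 10 were tested and 0 passed, with 5 higher and 5 lower in value and a median log2 fold change of 0.014. Cdkn2a had 114 ± 10.1 and 129 ± 7.11 FPKM (SD, n = 3; limma, adjusted p = 0.411), Cdkn1b had means of 27.5 and 29.2 FPKM, Grb14 of 5.77 and 6.37, and Gigyf1, a Grb10-binding protein gene, of 15.0 and 13.8. Of 20 names of gag-derived relatives of Peg10, several of them older names of one gene, 12 were in the tables and 6 were tested; 0 passed and 4 were lower in value, with a median log2 fold change of -0.13. Rtl8b had 7.25 and 6.19 FPKM in mean, Rtl10 had 3.74 and 2.94, Arc had 13.8 and 11.9, and Rtl8a had 4.60 and 4.24. Rtl8a, Rtl8b and Rtl8c are close paralogs, and the division of reads among them is uncertain.

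In the imprint maintenance list, 14 genes were lower and 3 higher in value among 17 tested of 21 listed. Of these 0 passed, and the median log2 fold change was -0.04. The list holds genes that keep the methylation of imprinted regions, but also others, such as Tet2, Tet3 and Ctcf. Tet2 was among the higher genes, and Tet3 and Ctcf were among the lower. Uhrf1, which guides maintenance methylation to new DNA, had 30.7 ± 1.66 and 26.7 ± 1.51 FPKM (SD, n = 3; limma, adjusted p = 0.332), and Dnmt1, the maintenance methyltransferase, had 29.1 ± 2.88 and 25.6 ± 0.929 (adjusted p = 0.453). Setdb1 had means of 16.6 and 15.1 FPKM and Dnmt3b of 2.24 and 1.84. Zfp57, the zinc finger protein that binds methylated imprinted regions, was present at a mean of 23.1 FPKM.

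**Figure D5:**
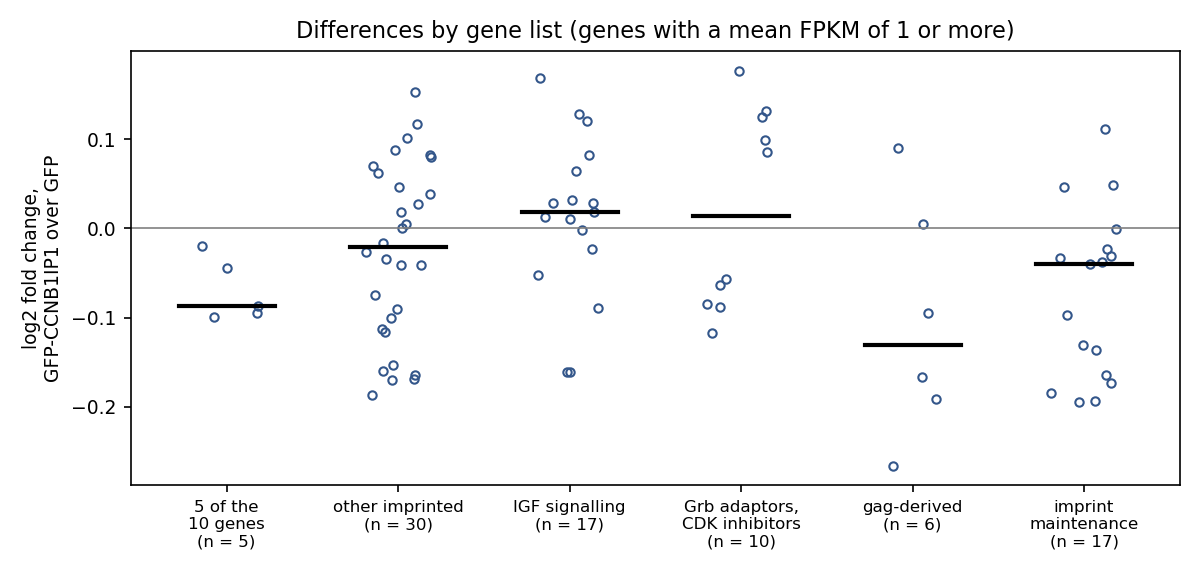
Log2 fold change of GFP-CCNB1IP1 over GFP for each tested gene (open points) of the lists named under the axis, with a black bar at the list median. The medians run from -0.13 for the 6 gag-derived genes to 0.02 for the 17 IGF signalling genes, and none of the plotted genes passed the test.

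The genes whose pattern over the 6 libraries was most like that of Dlk1 were Map2, Ndrg4, Tvp23b, Rps2-ps8 and Ndufb10, out of 6954 genes with a mean of at least 10 FPKM. Likeness was the root-mean-square difference of centred log2(FPKM + 1) values, which was 0.0162 for Map2, a neuronal microtubule protein gene, and 0.0228 for Ndufb10, beside a median of 0.107 over the 6954 genes. Dlk1 itself varied by an SD of only 0.0676 on that scale over the 6 libraries. Its deposited intervals all overlapped one another, so differences between its libraries are not resolved. The genes named are the closest found in a search over all 6954, and whether they share a behaviour with Dlk1 was not tested.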

How the data were processed

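The authors deposited 1 table of FPKM per library, with a lower and an upper bound for each value and a status, per the file headers. HISAT2 and Cufflinks are named in the submitters' processing notes, with no version; the sources used here give neither build nor annotation. Each table had 53537 rows; 38 identifiers on several rows were summed, which left 53492 genes. Locus starts were taken to count from 0, and 1 was added. FPKM were used as deposited. Genes with a mean of at least 1 FPKM over the 6 libraries were tested on log2(FPKM + 1) by limma 3.58.1 (R 4.3.3) with its mean-variance trend, no block, and Benjamini-Hochberg adjustment over all 13231. An exact permutation test of 3 against 3 cannot pass 0.05 and was not used. The fit was tested on simulated data. Read totals are not in the tables; the fragments that would give an interval of the deposited width were computed as the squared ratio of FPKM to its standard error, the upper bound being 2 standard errors up, and such an estimate also holds the uncertainty of assigning reads to isoforms. Relative depth was the median over 2244 genes of such fragments per FPKM. Cell type markers and gene lists came from general knowledge.

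The members and lists were chosen with earlier results of these data known. Named genes are the 10 members, up to 4 genes with the smallest unadjusted p of each other list, marker genes, genes with a mean of at least 1 FPKM between Dlk1 and Dio3, nearest genes, and the 5 genes most like Dlk1. Rtl1, Dio3, Mest, H13, Igf1, Igf1r, Insr, Igf2r, Cdkn1a and Zfp57 were added after their values were seen. Some genes that the rule names are not reported here. Sequences of mouse genes were not used here. Alternatives were pseudocounts of 0.1 and 5, no filter, a filter of 5 FPKM, TPM, quantile normalization, median-of-ratios scaling, removal of loci under 300 bases, a replicate block, limma without the trend or with a robust prior, the highest row per identifier, removal of genes of status other than OK, and removal of each single library.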

Additional observations from a re-analysis of the deposited data

How the results depend on the processing

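None of the 10 genes passed under any of the 19 alternatives; over their 190 values the lowest adjusted p was 0.320 (limma), and 182 kept their direction and stayed short of the threshold. The 8 that changed sign came from leaving out a library. The log2 fold change of Cdkn1c was -0.101 without GFP replicate 1, -0.00708 with GFP-CCNB1IP1 replicate 1 removed and -0.0369 with its replicate 3 removed. With GFP-CCNB1IP1 replicate 2 removed, Dlk1 was at 0.000891, Grb10 at 0.0204 and Igf2 at 0.0413. Igf2 was at 0.185 without GFP replicate 1 and 0.0471 with GFP-CCNB1IP1 replicate 3 removed. Over single removals Cdkn1c ran from -0.101 to 0.169, Dlk1 from -0.0889 to 0.000891, Grb10 from -0.0822 to 0.0204 and Igf2 from -0.149 to 0.185, while Peg3 ran from -0.153 to -0.0179, Peg10 from -0.132 to -0.0624 and Rian from -0.153 to -0.0340. The causes were not tested.

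The count of genes called, 1 higher and 0 lower, was 0 with a pseudocount of 5, no filter, loci under 300 bases left out, limma without the trend, or the replicate block, and ran from 0 to 4 (0 to 2 higher, 0 to 2 lower) with a library left out. With no filter 1 of the 10 genes, Meg3, did not overlap between groups among those tested. With a library left out, from 0 to 2 of the 5 tested genes did not overlap, beside 25.6% to 31.8% of all genes tested, and from 1 to 4 of the 10, beside 19.8% to 23.5% of all genes with any signal. The median log2 fold change of gag-derived genes was -0.0552 with no filter, -0.0910 with a pseudocount of 5 and -0.177 to -0.0251 with a library left out. That of Grb10 and Cdkn1c relatives was 0.0853 at a filter of 5 FPKM and -0.00164 to 0.0480 with a library left out. That of the imprint maintenance list was -0.0849 with TPM and -0.0973 to -0.0315 with a library left out. With a library left out, the median of IGF signalling genes ran from -0.00918 to 0.0333 and that of other imprinted genes from -0.0198 to 0.0126.

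Replicate numbers shared by the groups were not taken to pair the libraries, since same-numbered deviations correlated at 0.023, -0.009 and -0.011 across 13231 genes. With the replicate block 0 genes were called, against 1 without it. The depth of the lowest members, equivalent to fewer than 4 fragments for Cdkn1c, Meg3, H19 and Grb10, limits what can be read from them.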
